A study of Mus musculus with 12 samples.

Results

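The MHC class I presentation genes were followed in germinal center B cells sorted from spleens of the strain NZBWF1/J, a hybrid of NZB and NZW mice used as a model of lupus. They comprise 8 of the 12212 gene symbols in the count tables, chosen by name: H2-K1, H2-D1, B2m, Tap1, Tap2, Tapbp, Nlrc5 and Erap1. All 8 were present and all 8 passed the filter on low counts. The 12 libraries, each made from 1000 sorted cells, formed 4 groups of 3: light zone treated, light zone control, dark zone treated and dark zone control. Treated mice had 6 doses of 200 ug CTLA4-IG, a fusion protein that binds CD80 and CD86, and 6 doses of 250 ug Anti-CD40L, an antibody to the T cell ligand of CD40. Their dosing began at 18 weeks of age and lasted 2 weeks, whereas controls were untreated and their age is not stated in the labels. The labels do not say whether the libraries of a group came from separate mice, so the p-values cover only the spread among libraries, which may be technical. The question put by the design is how germinal center cells of each zone differ after T cell help is blocked.

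MHC class I molecules show peptides from inside the cell to CD8 T cells. A heavy chain (H2-K1 or H2-D1 in mice) pairs with beta-2-microglobulin, encoded by B2m, and is loaded with peptides that the proteasome cuts and the TAP transporter brings into the endoplasmic reticulum. Tapasin (Tapbp) bridges the transporter and the empty heavy chain, the peptidase Erap1 trims the peptides, and Nlrc5 is the transactivator that acts at class I promoters. Nearly all nucleated cells, B cells included, express these genes.

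H2-K1, H2-D1, Tap1, Tap2 and Tapbp lie in the MHC on chromosome 17, and B2m, Nlrc5 and Erap1 lie elsewhere. On mm10 (GENCODE M21) H2-K1 spans chr17:33996017-34000347 on the minus strand and H2-D1 spans chr17:35262730-35267499 on the plus strand. B2m is at chr2:122147686-122153083. Tapbp (chr17:33915899-33929292), Tap1 (chr17:34187553-34197225) and Tap2 (chr17:34203527-34216321) follow each other on the plus strand. Nlrc5 is at chr8:94434356-94527272 and Erap1 at chr13:74639568-74693201. Tap1 shares 212 exon bases with its neighbour Psmb9, and Erap1 shares 834 with Cast. The libraries keep no strand, so reads of shared bases can come from either gene.

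The promoters of the heavy chains and of B2m are shown because class I genes are known for a shared promoter layout. Heavy and light chain genes also differed in opposite directions below with all 12 libraries, but not once 3 treated libraries were left out. The RefSeq table of promoters (GRCm38.p6) held 6 of the 8 members, with no entry used for Tap2 and Nlrc5. Capitals mark matches, on either strand, to 5 motifs chosen after the sequences had been seen. They are the kB site GGGGATTCCCC of the class I enhancer, the kB-like run GGGAAAGTCCC of B2m, the interferon response core TTTCNNTT, the CRE core TGACG, and the CCAAT box (read as ATTGG on the other strand). No 2 marked matches overlap. The 250 bases upstream of H2-K1 are from chr17:34000348-34000597 on the minus strand, and those upstream of B2m are from chr2:122147437-122147686 on the plus strand.
H2-K1: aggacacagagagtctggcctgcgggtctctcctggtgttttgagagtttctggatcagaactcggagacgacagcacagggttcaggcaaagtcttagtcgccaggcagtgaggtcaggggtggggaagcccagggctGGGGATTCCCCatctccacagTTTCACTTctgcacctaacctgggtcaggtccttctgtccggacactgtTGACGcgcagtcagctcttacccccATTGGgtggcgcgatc
B2m: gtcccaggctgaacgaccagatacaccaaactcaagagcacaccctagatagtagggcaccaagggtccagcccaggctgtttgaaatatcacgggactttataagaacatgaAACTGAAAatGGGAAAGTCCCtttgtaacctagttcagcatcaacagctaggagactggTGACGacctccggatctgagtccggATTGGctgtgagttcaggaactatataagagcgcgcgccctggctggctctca
The kB and interferon response stretches of H2-K1 (chr17:34000429-34000458, minus strand) and H2-D1 (chr17:35262923-35262952, plus strand) are set one above the other.
H2-K1: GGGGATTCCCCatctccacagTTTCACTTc
H2-D1: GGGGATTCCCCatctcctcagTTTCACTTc
The H2-D1, Tapbp and Erap1 windows lie inside the GENCODE M21 spans given above, because the RefSeq start sites used are further along these genes, and all 250 bases of each are exonic there, as are those of the Tap1 window. Over the aligned bases of their upstream windows, H2-K1 and H2-D1 were identical at 166 of 190 positions (87.4%). Of 32851 windows of the same length, 0.0304% held GGGGATTCCCC and 0.0639% held GGGAAAGTCCC. The shorter motifs were common, at 21.3% for TTTCNNTT, 17.8% for TGACG and 33.8% for CCAAT, and 1.08% of windows held all 3. H2-K1, H2-D1 and B2m each held these 3. The Tap1 window held TGACG and CCAAT, the Tapbp window CCAAT alone of the 5 motifs, and the Erap1 window none of them. A match describes the letters and says nothing of binding in these cells.

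Library totals were 16032746 to 26837714 counts, and a floor of 3 counts stood at 0.0776 to 0.206 CPM (read counts scaled to library size, with TMM factors). The B cell gene Cd79a was high in all 12 libraries, at 1690 to 2130 CPM in 3 treated libraries and 2190 to 3280 CPM in the other 9. Those 3 libraries, light zone treated replicate 2 and dark zone treated replicates 1 and 2, stood apart from the rest along the first principal component of all genes, which held 30.3% of the variance. They also had counts for more gene symbols, 12188 to 12195 against 11384 to 11960 in the other 9. Their TMM factors were 1.35 to 1.44, against 0.815 to 0.988. In the 3 libraries the 8 macrophage markers summed to 70 to 173 CPM, against 6.31 to 66 CPM in the other 9. Of the 8, 5 were higher in all 3, as were 13.7% of all genes tested. Lyz2 stood at 13.7 to 17.9 CPM against 0.103 to 0.523, and C1qa at 8.06 to 21 CPM against 0 to 0.36 with a median of 0. The 8 T cell markers summed to 139 to 304 CPM against 86.9 to 225 CPM, and 4 of the 8 were higher in all 3. Most of that sum was Lck, which overlapped at 123 to 249 CPM against 80.4 to 206 CPM. The 4 higher genes, Cd3e, Cd4, Cd8a and Cd8b1, were low, at 10.6 CPM or less. Cd3g stood at 1.58 to 10.5 CPM against 0 to 28.5 CPM with a median of 11.8, and the other T cell markers overlapped. The 5 plasma cell markers summed to 1310 to 2410 CPM against 6430 to 11500 CPM, and 0 of the 5 were higher in all 3. Most of that sum was Jchain, at 1110 to 2150 CPM against 6210 to 11300 CPM. The other plasma cell markers overlapped. The ratio of medians, 3 libraries over 9, was 3.85 for Prdm1, 38.9 for Sdc1, 22.6 for Irf4 and 0.968 for Xbp1. The 8 germinal center B cell markers summed to 1540 to 2050 CPM against 3280 to 4580 CPM, and 1 of the 8 was higher in all 3. That gene was S1pr2, at 299 to 328 CPM against 68.5 to 169 CPM. Rgs13 was lower in all 3, at 166 to 254 CPM against 1500 to 2510 CPM, as were Fas and Gcsam. The other germinal center markers overlapped. The part of these differences in the results below was not tested, and treatment results are given with and without the 3 libraries.

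Treatment was compared with control in each zone by edgeR's quasi-likelihood test over 12081 genes with Benjamini-Hochberg adjustment. No member passed an adjusted p of 0.05 in any of the 5 comparisons, and neither did any other gene (0% of those tested). At an unadjusted p under 0.05 edgeR had 889 genes (7.36%) for treatment in the light zone and 1075 (8.9%) in the dark zone. DESeq2 called 216 (1.79%) and 72 (0.596%) genes there, and 0 of the 8 members in any comparison. The members are therefore described by their values.

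The heavy chains were higher on average in treated libraries, and the height came from the 3 libraries that stood apart. H2-K1 had 23, 215 and 56.4 CPM in light zone treated replicates 1 to 3, against 61.2, 36.7 and 58.1 CPM in light zone controls. Dark zone treated libraries had 107, 160 and 19.3 CPM, against 33.8, 38.7 and 39.1 CPM in controls. Treated libraries thus lay both above and below all controls of their zone. EdgeR's log2 difference was 0.92 (SE 0.82, edgeR adjusted p = 0.814) in the light zone and 1.36 (SE 0.83, adjusted p = 0.55) in the dark zone. These became -0.38 and -0.93 without the 3 libraries, the dark zone value resting on the 1 treated library left. In bulk samples of this kind, fewer cells of a type and less RNA per cell cannot be told apart.

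H2-D1, the other classical heavy chain gene among the members, had 329, 1700 and 238 CPM in light zone treated libraries, against 369, 282 and 319 CPM in controls. Dark zone treated libraries had 1020, 1180 and 238 CPM, against 348, 202 and 347 CPM in controls. As for H2-K1, the high values were those of light zone treated replicate 2 and dark zone treated replicates 1 and 2, and the groups overlapped in both zones. By edgeR the log2 difference was 1.23 (SE 0.75, adjusted p = 0.72) in the light zone and 1.44 (SE 0.75, adjusted p = 0.528) in the dark zone. It was -0.18 and -0.31 when the 3 libraries were left out. Class I heavy chain genes are similar to each other in sequence and highly variable between mouse strains. The genome build used by the authors is that of C57BL/6. Reads may therefore be lost or shared among them, and counts of single heavy chain genes are uncertain.

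B2m, the light chain shared by all these heavy chains, differed in the opposite direction with all 12 libraries. It had 3810, 1060 and 3490 CPM in light zone treated libraries, against 4140, 4030 and 4910 CPM in controls. In the dark zone it had 636, 1250 and 2610 CPM in treated libraries, against 3430, 4470 and 3290 CPM in controls. All 6 treated libraries were below all 3 controls of their own zone. Of all genes tested, 5.49% were lower without overlap in the light zone, 11.2% in the dark zone and 271 (2.24%) in both. The log2 difference was -0.65 (SE 0.54, edgeR adjusted p = 0.801) in the light zone and -1.32 (SE 0.55, adjusted p = 0.528) in the dark zone. Leaving out the 3 libraries gave -0.24 and -0.5, still below 0. H2-K1 and H2-D1 were then below 0 in both zones too, so the opposite direction was lost.

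**Figure D1:**
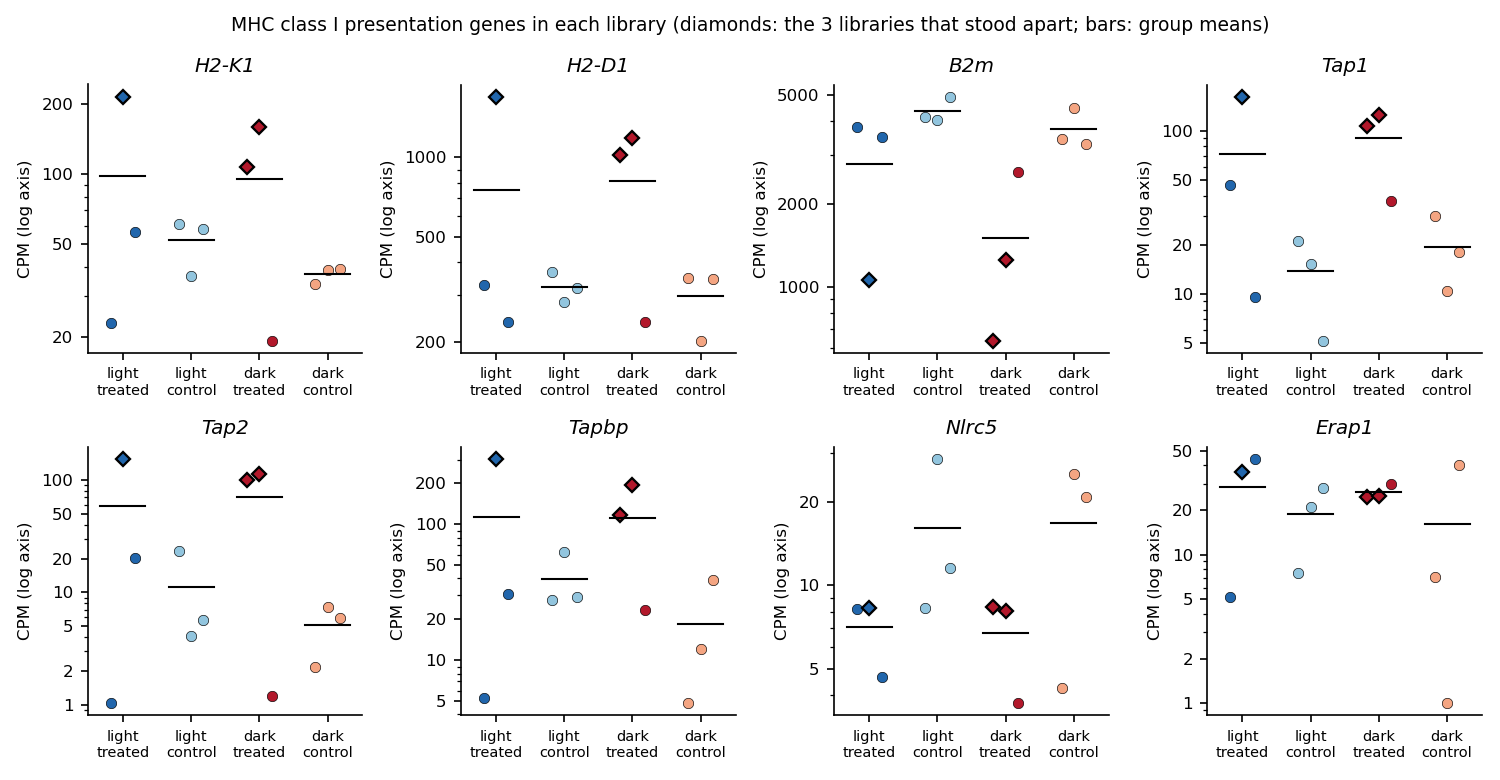
CPM of each member (log axis) in the 12 libraries by zone and treatment, with bars at group means and diamonds for light zone treated replicate 2 and dark zone treated replicates 1 and 2. The diamonds are the highest points for H2-K1, H2-D1, Tap1, Tap2 and Tapbp and the lowest for B2m, where they lie at 636 to 1250 CPM.

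The balance of heavy chain to light chain counts followed the same libraries. The sum of H2-K1 and H2-D1 over B2m, a ratio of CPM values that is not per length and is read only between libraries, was 0.0924, 1.81 and 0.0844 in light zone treated libraries. Light zone controls had 0.104, 0.079 and 0.0768. Dark zone treated libraries had 1.77, 1.07 and 0.0987, and dark zone controls 0.111, 0.0538 and 0.118. The ratio was above 1 in the 3 libraries that stood apart, and the other 3 treated libraries lay within the range of the 6 controls. H2-L, a heavy chain gene that some mouse strains carry and that has no position in GENCODE M21, was counted in every library. It had 86.6, 817 and 89.2 CPM in light zone treated libraries, against 96, 95.2 and 86.3 CPM in controls, and 469, 556 and 88.2 CPM in dark zone treated libraries, against 74.8, 45.4 and 118 CPM in controls. It was high in the same 3 libraries as H2-K1 and H2-D1, and without them differed by -0.06 in the light zone and 0.17 in the dark zone. The ratio of H2-L to H2-D1 CPM values was 0.46 to 0.48 in the 3 libraries and 0.215 to 0.375 in the other 9. Whether reads counted for H2-L are separate from those of H2-D1 was not tested, so H2-L is not an independent observation.

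Of the transporter genes, Tap1 was above all controls in every treated library of the dark zone. Tap1, a subunit of the peptide transporter, had 46.3, 161 and 9.65 CPM in light zone treated libraries, against 21.1, 15.3 and 5.19 CPM in controls. Dark zone treated libraries had 107, 125 and 37.3 CPM, against 29.9, 10.5 and 18 CPM in controls. All 3 dark zone treated libraries were above all 3 controls, a pattern shared by 12.5% of genes tested, and in the light zone the groups overlapped, as they did there for all members but B2m and Nlrc5. In that zone 5.82% of genes were higher without overlap and 0 of the 8 members were. The log2 difference was 2.38 (SE 0.95, edgeR adjusted p = 0.674) in the light zone and 2.2 (SE 0.94, adjusted p = 0.528) in the dark zone. Their unadjusted edgeR p was 0.0293 and 0.0397, and with B2m in the dark zone (0.0361) these were the members' 3 values under 0.05. In the other 9 libraries Tap1 differed by 1.03 in the light zone and 0.95 in the dark zone.

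Tap2, the partner subunit of the transporter, had 1.05, 153 and 20.1 CPM in light zone treated libraries, against 23.5, 4.07 and 5.65 CPM in controls. Dark zone treated libraries had 98.9, 112 and 1.2 CPM, against 2.19, 7.49 and 5.89 CPM in controls. In each zone the lowest of all libraries was also a treated library, and the groups overlapped. Treated minus control, the log2 difference was 2.39 (SE 1.62, edgeR adjusted p = 0.746) in the light zone and 3.77 (SE 1.72, adjusted p = 0.528) in the dark zone. With the 3 libraries left out it was -0.06 and -2.09. The ratio of Tap1 to Tap2 CPM values was 1.05 to 1.11 in the 3 libraries and 0.479 to 43.9 in the other 9. Tap2 had 3071 to 5903 counts in the 3 and 18 to 390 in the other 9. The highest ratios, 43.9, 31.1 and 13.6, stood on Tap2 counts of 18, 30 and 32. The widths of these ranges are therefore not comparable.

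Psmb9, an immunoproteasome subunit that lies head to head with Tap1, showed no such height. It had 488, 365 and 635 CPM in light zone treated libraries, against 534, 741 and 562 CPM in controls. In the dark zone it had 359, 525 and 472 CPM in treated libraries, against 530, 518 and 420 CPM in controls. The groups overlapped in both zones, and without the 3 libraries the log2 difference was -0.11 in the light zone and -0.04 in the dark zone. The ratio of Tap1 to Psmb9 CPM values was 0.0948, 0.44 and 0.0152 in light zone treated and 0.0396, 0.0206 and 0.00922 in light zone control libraries. It was 0.297, 0.238 and 0.0791 in dark zone treated and 0.0564, 0.0203 and 0.0429 in dark zone control libraries. The ratio was highest in the 3 libraries that stood apart, and in the dark zone all treated libraries were above all controls.

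**Figure D2:**
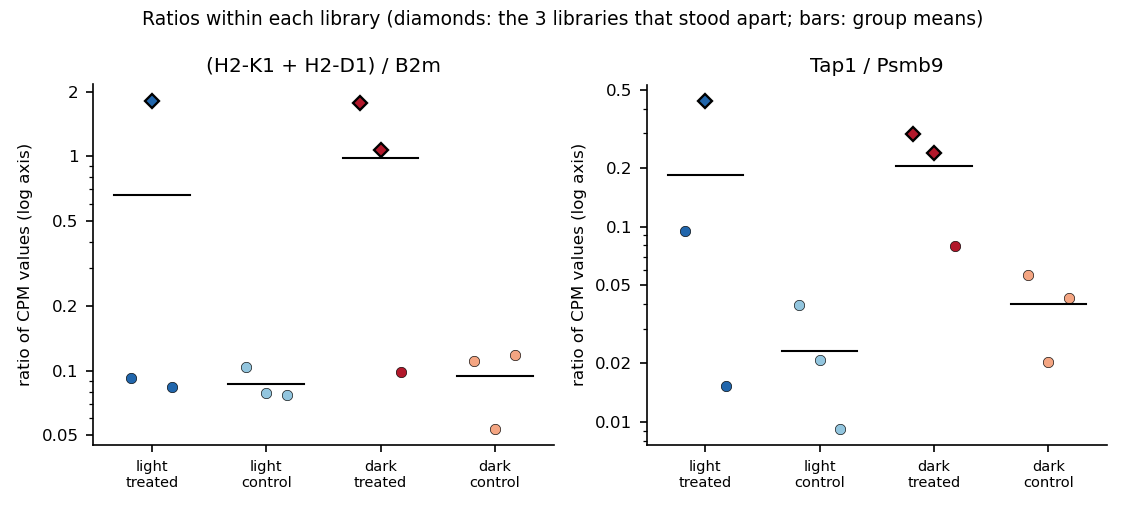
Ratio of CPM values (log axes) in each library, for the sum of H2-K1 and H2-D1 over B2m on the left and Tap1 over Psmb9 on the right, by zone and treatment with bars at group means. The 3 diamonds reach 1.07 to 1.81 on the left, where the other 9 libraries reach 0.118 at most, and 0.238 to 0.44 on the right, where the other 9 reach 0.0948 at most.

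Tapbp, which encodes tapasin, had 5.32, 303 and 31 CPM in light zone treated libraries, against 27.9, 62.3 and 29.2 CPM in controls. In the dark zone, treated libraries had 118, 194 and 23.6 CPM, against 4.87, 12.1 and 38.8 CPM in controls. The groups overlapped in both zones, since dark zone treated replicate 3 and light zone treated replicates 1 and 3 were below the highest control. The log2 difference was 1.51 (SE 1.26, edgeR adjusted p = 0.8) in the light zone and 2.59 (SE 1.31, adjusted p = 0.528) in the dark zone. The 9 remaining libraries gave -1.13 and 0.37.

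Erap1, the trimming peptidase, varied widely among controls. It had 5.21, 35.7 and 44 CPM in light zone treated libraries, against 7.52, 20.9 and 27.9 CPM in controls. The dark zone treated libraries had 24.3, 24.7 and 29.8 CPM, against 7.13, 1.01 and 40.2 CPM in controls. The 3 dark zone treated libraries lay inside the range of their controls. Its log2 difference was 0.59 (SE 1.12, edgeR adjusted p = 0.911) in the light zone and 0.7 (SE 1.12, adjusted p = 0.812) in the dark zone. The 9 other libraries gave 0.4 and 0.91.

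Nlrc5, the class I transactivator, was lower on average in treated libraries, in the same direction as its known target B2m and opposite to its known targets H2-K1, H2-D1 and Tap1. Without the 3 libraries H2-K1 and H2-D1 were also below 0 in both zones, and Tap1 was above. Nlrc5 had 8.19, 8.27 and 4.65 CPM in light zone treated libraries, against 8.31, 28.6 and 11.5 CPM in controls. Treated libraries of the dark zone had 8.37, 8.06 and 3.76 CPM, against 4.25, 25.2 and 20.8 CPM in controls. In the light zone all 3 treated libraries were below all 3 controls, as in 5.49% of genes, by a margin of 8.27 to 8.31 CPM that was lost when libraries were scaled by their totals. In the dark zone the groups overlapped. The log2 difference was -1.2 (SE 0.8, edgeR adjusted p = 0.743) in the light zone and -1.32 (SE 0.81, adjusted p = 0.551) in the dark zone. It was -1.32 and -2.14 without the 3 libraries, so its direction was kept. The dark zone value then rested on the 1 treated library left, at 3.76 CPM against controls of 4.25, 25.2 and 20.8 CPM. Among the 6 treated libraries Nlrc5 ranged from 3.76 to 8.37 CPM.

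**Figure D3:**
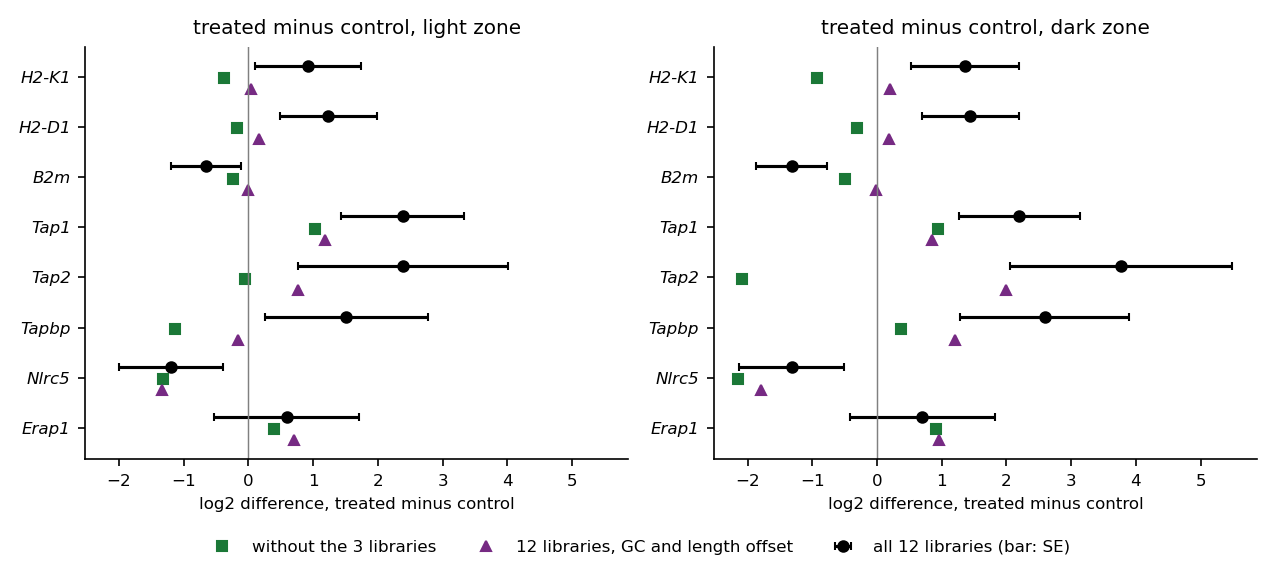
Log2 difference, treated minus control, of each member in the light zone (left) and dark zone (right), for all 12 libraries by edgeR with SE bars, without the 3 libraries that stood apart, and with an offset for transcript GC and length. For H2-K1, H2-D1 and Tap2 the difference was above 0 with all libraries and below 0 without the 3, while for Nlrc5 it was below 0 in every fit shown, at -2.14 to -1.2.

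Taking the members as a list, 6 of 8 were higher and 2 (B2m and Nlrc5) lower in treated libraries of each zone. The median log2 difference was 1.07 in the light zone and 1.4 in the dark zone, beside medians over all genes of 0.1 and 0.06. In the other 9 libraries 2 of 8 were higher in the light zone with a median of -0.21, and 3 of 8 in the dark zone with a median of -0.41, beside -0.04 and -0.11 over all genes. By CPM, H2-K1, H2-D1, Tap1, Tap2 and Tapbp were higher in all 3 of those libraries than in any of the other 9, as were 13.7% of all genes tested. B2m was lower in them than in any of the other 9, as were 16.7% of all genes. By edgeR's interaction term no difference in treatment effect between zones was detected, at an adjusted p of 1 for each member and with log2 values of -1.38 to 0.67 for the light zone effect minus the dark zone effect. That test called 0 of all genes, had 275 (2.28%) at an unadjusted p under 0.05, and DESeq2 called 16 (0.132%).

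The members' differences were set beside those of genes of like transcript GC and length, because levels in the 3 libraries moved with both. GC and length came from the longest coding transcript in GENCODE M21 and were known for 93.4% of genes tested. With genes in 5 equal bins by GC, the median deviation of log2 CPM from each gene's mean in the bin of highest GC was 1.04 to 1.32 in the 3 libraries and -0.45 to 0.04 in the other 9. In the bin of lowest GC it was -0.31 to -0.25 in the 3 and 0.14 to 0.36 in the other 9. The shortest transcripts had a median of -0.44 to -0.36 in the 3 libraries and 0.16 to 0.38 in the other 9. B2m has a short transcript of low GC (860 bases, 41.2%), and H2-K1, H2-D1, Tap1, Tap2 and Tapbp have GC contents of 55.8% to 57.3%.

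Beside genes in the same bins, some members lay near the median of their like and others did not. The H2-D1 difference of 1.23 in the light zone and 1.44 in the dark zone stood beside medians of 1.03 and 1.28 over 547 genes. For B2m, -0.65 and -1.32 stood beside -0.47 and -1.07 over 246 genes. H2-K1, at 0.92 and 1.36, stood beside 0.02 and 0.2 over 690 genes. Its transcript of 1619 bases lies near the upper edge of a length bin of 216 to 1750 bases. H2-D1, at 2102 bases, is in the same GC bin and the next length bin. The median set beside H2-K1 thus depends on where that edge falls. Tap1, Tap2 and Tapbp shared bins, with medians of 0.8 and 1 over 434 genes, against which Tap2 stood farthest at 2.39 and 3.77. For Nlrc5 the medians over 331 genes were above 0, at 0.41 and 0.49, and its own values of -1.2 and -1.32 below 0. The Erap1 values of 0.59 and 0.7 stood beside -0.1 and -0.22 over 665 genes.

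With an offset for GC and length in the edgeR fit, an alternative added after the data had been seen, the differences were smaller for most members. In the light zone they were 0.04 for H2-K1, 0.17 for H2-D1, -0.01 for B2m, 1.19 for Tap1, 0.76 for Tap2 and -0.16 for Tapbp. In the dark zone they were 0.2, 0.19, -0.02, 0.85, 2 and 1.2 for the same genes in that order. Nlrc5 kept -1.33 and -1.79, and Erap1 had 0.71 and 0.96. The median over all genes with the offset was -0.01 in the light zone and -0.23 in the dark zone. An offset of this kind removes any difference that goes with GC and length, from whatever source, and the source was not tested.

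**Figure D4:**
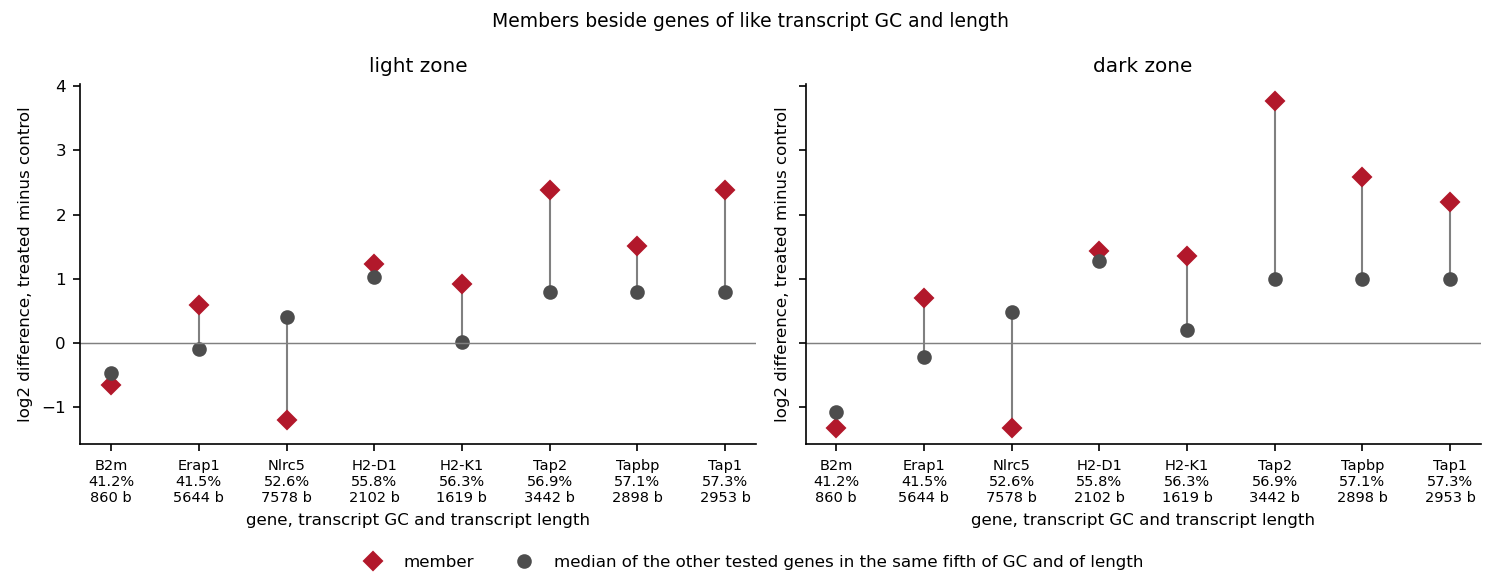
Log2 difference, treated minus control, of each member (diamonds) and the median of the other tested genes in its bin of transcript GC and of length, 5 bins each (circles), in the light zone (left) and dark zone (right), with members in order of GC. H2-D1 and B2m lie near their circles, Tap2 stands farthest above its circle in the dark zone (3.77 against 1), and Nlrc5 lies below its circle in both zones.

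Light and dark zone cells, which the authors separated by sorting, overlapped in the levels of the members in both treatments. In treated libraries B2m averaged 2790 ± 1500 CPM in the light zone and 1500 ± 1010 CPM in the dark zone (SD, n = 3 each). In controls it averaged 4360 ± 482 CPM in the light zone and 3730 ± 648 CPM in the dark zone. H2-K1 averaged 52 ± 13.4 CPM in light zone controls and 37.2 ± 2.96 CPM in dark zone controls. This overlap held for all 8 members, where 5.79% of genes in treated and 10.1% in control libraries did not overlap. The log2 difference, light minus dark zone, ranged from -0.31 to 0.89 in treated and from -0.49 to 1.1 in control libraries, with an edgeR adjusted p of 1 for each member. EdgeR had 249 genes (2.06%) in treated and 595 (4.93%) in control libraries at an unadjusted p under 0.05, and DESeq2 called 1 (0.00828%) and 113 (0.935%).

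Per kilobase of transcript the light chain was above the rest. In light zone treated libraries B2m averaged 3240 ± 1750 CPM per kilobase (SD, n = 3), H2-D1 360 ± 390 and H2-K1 60.6 ± 63.3, so that the SDs of the heavy chains exceeded their means. In light zone controls B2m averaged 5070 ± 560 CPM per kilobase (SD, n = 3), followed by H2-D1 at 154 ± 20.9 and H2-K1 at 32.1 ± 8.25. Next came Tapbp at 13.7 ± 6.74, Tap1 at 4.69 ± 2.73, Erap1 at 3.33 ± 1.83, Tap2 at 3.22 ± 3.14 and Nlrc5 at 2.13 ± 1.44 CPM per kilobase. B2m, H2-D1, H2-K1 and Tapbp differed from each other by more than the sum of their SDs. Tapbp and Tap1 did not, nor did Tap1, Erap1, Tap2 and Nlrc5 among themselves. The order of H2-D1 and H2-K1 is subject to the uncertainty of single heavy chain counts given above. Dark zone controls gave the same leading genes, with B2m at 4340 ± 754, H2-D1 at 142 ± 40 and H2-K1 at 23 ± 1.83.

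The rest of the class I pathway was taken from lists chosen with earlier results of these data known. Of the immunoproteasome genes, whose subunits favour cutting peptides that suit class I, 0 of 5 were higher in treated libraries of either zone, with a median log2 difference of -0.24 in the light zone and -0.32 in the dark zone. Psme2, a subunit of the proteasome activator, had 300, 112 and 253 CPM in light zone treated libraries, against 355, 334 and 302 CPM in controls. Its dark zone values were 80, 90.2 and 175 CPM in treated libraries, against 232, 254 and 187 CPM in controls. Treated libraries were below all controls in both zones, as for B2m and 2.24% of all genes tested. The log2 differences were -0.58 (SE 0.41, edgeR adjusted p = 0.765) in the light zone and -0.96 (SE 0.42, adjusted p = 0.528) in the dark zone. Without the 3 libraries the list's medians were -0.04 and -0.01, with 2 of 5 genes higher in each zone, and Psme2 differed by -0.24 and -0.34. With the GC and length offset 0 of 5 were higher in either zone, with medians of -0.36 in the light zone and -0.8 in the dark zone, beside -0.01 and -0.23 over all genes. Between zones, 5 of 5 immunoproteasome genes were higher in the light zone in treated libraries (median 0.47) and in controls (median 0.39), beside medians over all genes of 0.05 and 0.

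Genes of the class Ib group, which encode heavy chains and relatives with narrower roles, were listed as 20 symbols, of which 17 were tested. That list also held H2-L, a classical heavy chain gene already described above, so its counts below include H2-L. In treated libraries 16 were higher in the light zone (median 1.26) and 15 in the dark zone (median 1.24). When the 3 libraries were left out, 9 were higher in the light zone (median 0.09) and 4 in the dark zone (median -0.55). With the GC and length offset 15 of 16 were higher in the light zone (median 0.71) and 11 of 16 in the dark zone (median 0.59). H2-T23, which encodes the Qa-1 molecule, averaged 113 ± 37.9 CPM in dark zone treated and 55.9 ± 21.3 CPM in dark zone control libraries, a log2 difference of 1.02 (SE 0.49, edgeR adjusted p = 0.528) that was 0.35 without the 3 libraries. H2-Q2 had 6.32, 13.4 and 6.45 CPM in light zone treated libraries, against 2.22, 1.84 and 3.01 CPM in controls. These did not overlap, as for 5.82% of all genes tested, which were higher without overlap there. The log2 difference was 1.88 (SE 0.79, edgeR adjusted p = 0.674), and 1.45 without the 3 libraries. By CPM, 8 of the 17 were above the other 9 libraries in all 3 that stood apart, beside 13.7% of all genes. Among them were H2-L at 469 to 817 CPM against 45.4 to 118 CPM, and H2-Q1 at 21.7 to 39.9 CPM against 7.33 to 12.6 CPM.

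Of the 8 endoplasmic reticulum chaperones of loading and folding, 7 were higher in treated libraries of each zone, with medians of 0.44 in the light zone and 0.72 in the dark zone. Ganab, a glucosidase subunit that trims glycans on new proteins, was called by DESeq2 in the light zone (adjusted p = 0.0103) and not by edgeR (log2 difference 1.8, SE 0.49, adjusted p = 0.674). It had 80.1, 56.5 and 36 CPM in light zone treated libraries, against 13.1, 17.4 and 18.9 CPM in controls. These groups did not overlap, beside 5.82% of all genes tested that were higher without overlap in that zone. The highest value came from light zone treated replicate 1, which did not stand apart. Ganab differed by 1.83 without the 3 libraries. Calr, the chaperone calreticulin, had 267 to 524 CPM in the 3 libraries and 94 to 256 CPM in the other 9. Without the 3 libraries 3 of the 8 chaperones were higher in the light zone (median -0.1) and 2 in the dark zone (median -0.25). With the GC and length offset 6 were higher in the light zone (median 0.15) and 5 in the dark zone (median 0.43).

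Among the 17 regulators of class I transcription, 8 were higher in treated libraries of each zone, with medians of -0.01 in the light zone and -0.23 in the dark zone. When the 3 libraries were left out, 10 were higher in the light zone (median 0.14) and 6 in the dark zone (median -0.15). Nfya, a subunit of the CCAAT-binding factor NF-Y, was called by DESeq2 in the dark zone (adjusted p = 0.0402) and not by edgeR (log2 difference 3.84, SE 1.08, adjusted p = 0.528). It had 6.5, 7.05 and 12.8 CPM in dark zone treated libraries, against 0.685, 0.455 and 0.689 CPM in controls. The highest value was that of replicate 3, outside the 3 libraries, without which the difference was 4.39 and rested on that 1 treated library. Ciita, the class II counterpart of Nlrc5, had 28.3, 190 and 40.9 CPM in light zone treated libraries, against 16.5, 8.9 and 5.93 CPM in controls. The groups did not overlap, where 5.82% of all genes tested were higher without overlap. The log2 difference was 3.05 (SE 1.02, edgeR adjusted p = 0.674), and 1.74 without the 3 libraries. Suz12, a subunit of the Polycomb complex, was lower in dark zone treated than in control libraries (60.1, 67.6 and 95.9 CPM against 266, 135 and 134 CPM; log2 difference -1.26, SE 0.48, adjusted p = 0.528). Ezh2, the catalytic subunit of that complex, had 129, 86.3 and 96.5 CPM in light zone treated libraries, against 49.7, 40.5 and 68.3 CPM in controls. Without the 3 libraries the dark zone difference of Suz12 was -0.88 and the light zone difference of Ezh2 was 1.11. Of the other lists, 3 of 6 cytosolic peptidases were higher in treated libraries in the light zone and 4 of 6 in the dark zone. Constitutive proteasome genes were higher in 0 of 5 in the light zone and 1 of 5 in the dark zone. Of 3 tested genes of surface class I turnover, 1 was higher in the light zone and 3 in the dark zone. Leaving out the 3 libraries, peptidases were higher in 3 of 6 in the light zone (median -0.03) and 1 of 6 in the dark zone (median -0.75). Constitutive proteasome genes were then higher in 0 of 5 and 3 of 5, and turnover genes in 0 of 3 (median -1.04) and 2 of 3.

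**Figure D5:**
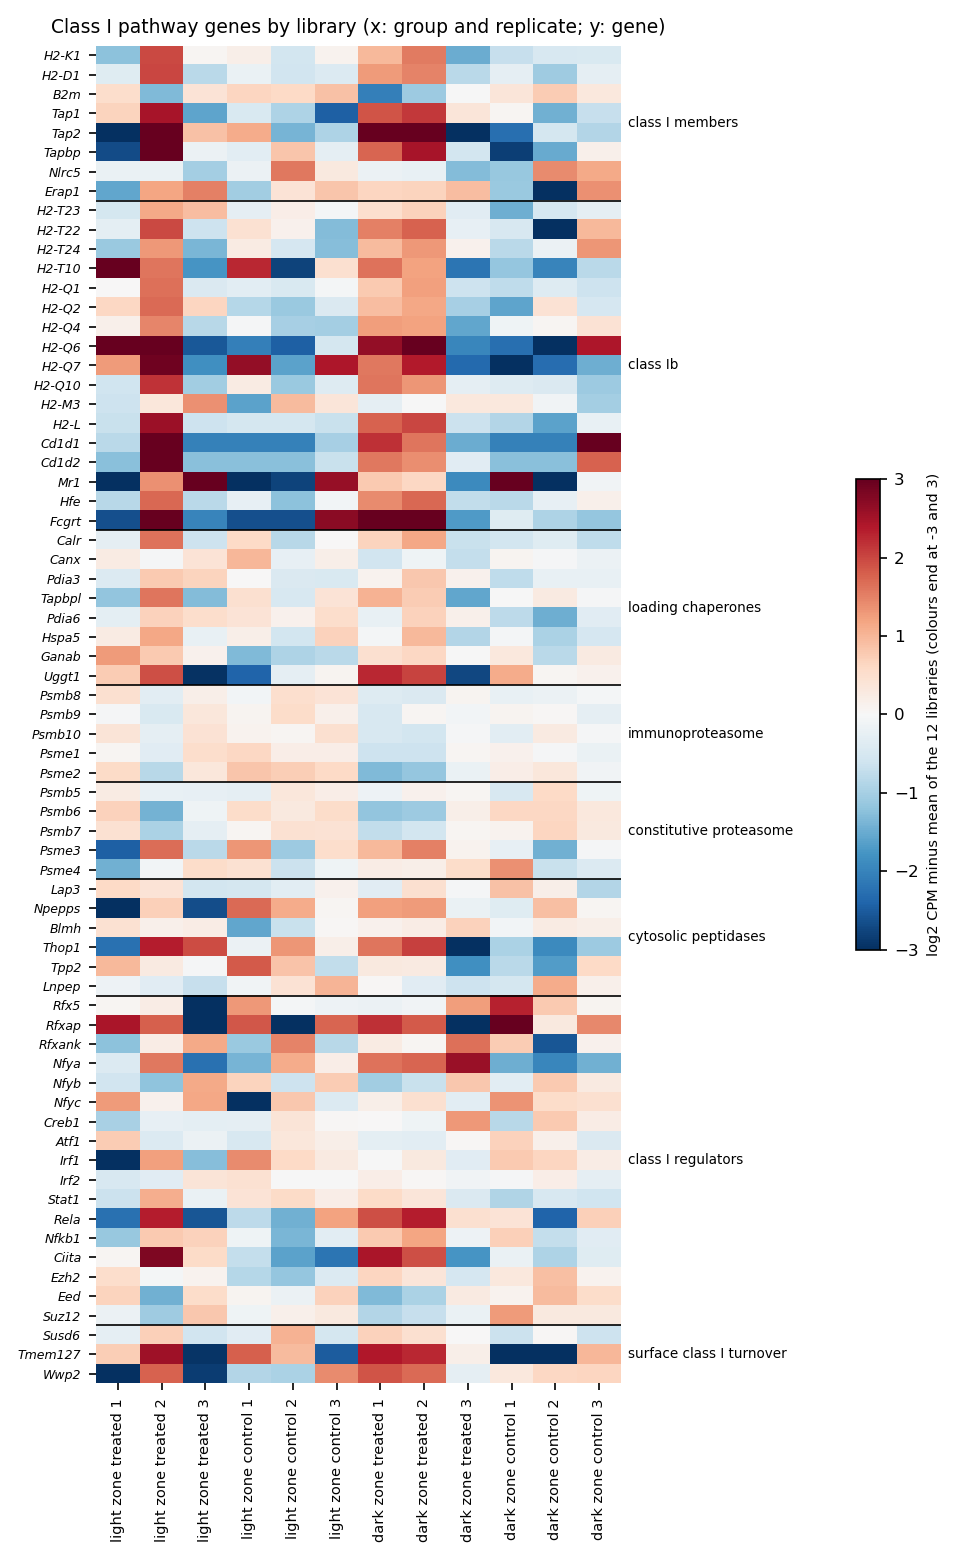
Log2 CPM (prior count 2) minus the gene's mean over the 12 libraries, for each tested class I pathway gene (rows, by list) in each library (columns, by group and replicate), with red above and blue below the mean. Light zone treated 2 and dark zone treated 1 and 2 are red for most genes of the class Ib list, where 8 of 17, H2-L included, exceed the other 9 libraries. They are blue for Psme2 and B2m.

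The genes whose pattern over the 12 libraries lay closest to that of a member were sought among 7267 genes with a mean of at least 10 CPM, by the mean absolute difference of log2 CPM after each gene's mean was removed. For H2-K1 these were H2-Q1 (0.38), Ppm1m (0.39) and Pwp2 (0.39), and H2-D1 ranked 6 at 0.41. For B2m they were Arhgdib (0.15), Samd8 (0.15) and Ube2l3 (0.16). For Tap1 they were Eif4g1 (0.42), Smarcc1 (0.45) and Cdk13 (0.51), and for Nlrc5 Fyttd1 (0.42), BC003331 (0.44) and Lnpep (0.45). The member pairs nearest to each other were H2-K1 with H2-D1, then H2-D1 with Tap1 at 0.7. B2m and Tap2 lay farthest apart at 2.63. All of these distances share the same 12 libraries, 3 of which stood apart, and say nothing of shared control.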

How the data were processed

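Light and dark zone cells of spleen germinal centers were sorted, 1000 per library, and sequenced from SMART-Seq v4 cDNA with Nextera XT libraries, per the labels' protocols. The authors used BWA and mm10, per the submitters' processing notes; the sources used here do not give the version, counting program or annotation. The deposited tables hold expected counts per gene symbol, with no scaling to a common total. Some values lie midway between whole numbers and were rounded up, which touched H2-K1 in 4 libraries, Tapbp in 3 and Tap1 in 1. Their origin is not stated. Library totals were 16032746 to 26837714 counts, and the floor of 3 counts covers counting error only. The highest correlation of log2 CPM between any pair of libraries was 0.973, and each was counted as 1 sample.

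Tests used edgeR 4.0.16 (R 4.3.3; quasi-likelihood, robust) and TMM on the 12081 genes that filterByExpr kept at minimum counts of 10 per library and 15 in total. The 4 groups of 12 libraries shared 1 fit, from which 5 contrasts came. P-values are two-sided and adjusted by Benjamini-Hochberg over all genes tested. The SE is the absolute log2 difference over the square root of F. The scripts were tested on simulated data. Alternatives were DESeq2 1.42.0, no filter, library totals, midway values rounded down, leaving out libraries, a term for the 3 libraries that stood apart, a replicate block and, added later, an offset by loess (span 0.5) on transcript GC and length. Positions, lengths and GC come from GENCODE M21, in which 11958 of 12212 symbols were found, and promoter sequences from RefSeq (GRCm38.p6).

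The members, lists and tests were chosen with earlier results of these data known. All 8 members were to be named, with up to 3 genes per other list and comparison by smallest unadjusted p, 3 genes of closest pattern for H2-K1, B2m, Tap1 and Nlrc5, and markers where needed. H2-L, Psmb9, H2-Q1 and the named rank of H2-D1 were added after their values were seen.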

Additional observations from a re-analysis of the deposited data

How the results depend on the processing

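Of the 40 member differences (8 members in 5 comparisons), 0 passed the edgeR threshold in any setting. All 40 kept their direction with no filter and with midway values rounded down, 39 with DESeq2, 37 with the replicate block, 37 with the GC and length offset, 36 with library totals, 26 without the 3 libraries that stood apart and 26 with a term for them. The cause of each reversal was not tested. Without the 3 libraries, the light zone treatment difference was -0.38 for H2-K1, -0.18 for H2-D1, -0.06 for Tap2 and -1.13 for Tapbp, and in the dark zone -0.93 for H2-K1, -0.31 for H2-D1 and -2.09 for Tap2. The light minus dark zone difference in treated libraries was then 0.27 for H2-D1, 3.14 for Tap2, -0.37 for Tapbp and -0.27 for Erap1, and the interaction 0.55 for H2-K1, 0.14 for H2-D1 and 2.03 for Tap2. With a term for the 3 libraries the light zone values were -0.44 for H2-K1, -0.12 for H2-D1, -0.38 for Tap2 and -0.87 for Tapbp, and the dark zone values -0.83, -0.45, -1.1 and -0.07 for the same genes. The zone difference in treated libraries was 0.44 for H2-D1, 0.03 for Tap1 and 1.81 for Tap2, and the interaction 0.38 for H2-K1, 0.33 for H2-D1 and 0.72 for Tap2.

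With library totals the zone difference in treated libraries was -0.02 for H2-K1, -0.18 for Nlrc5 and -0.02 for Erap1, and the interaction -0.09 for Nlrc5. Library totals also moved the median of all genes to 0.39, against 0.1 with TMM, for treatment in the light zone and to 0.51, against 0.06, in the dark zone, and left 1 in place of 2 members without overlap in the light zone. With the GC and length offset Tapbp was -0.16 for treatment in the light zone, and the zone difference in treated libraries was 0.21 for H2-D1 and 0.04 for Tap1. DESeq2 gave -0.01 for Tapbp there, and called 216, 72, 1, 113 and 16 genes for treatment in the light zone, treatment in the dark zone, zone in treated, zone in control and the interaction, against 0 by edgeR each time.

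Replicate numbers were not taken as pairs, since the labels do not state that same-numbered libraries share a mouse. Of 6 same-numbered pairs across zones 3 had a correlation over 0.1, and 2 libraries correlated best with their own number. The correlation was 0.539 for treated replicate 2, where both libraries stood apart, and -0.307 for treated replicate 1, where only the dark zone library did. These correlations cannot show whether such pairs share a mouse. With the replicate block edgeR called 0 genes, and the zone difference in treated libraries was -0.06 for H2-K1, -0.89 for Tapbp and -0.31 for Erap1.

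Leaving out 1 library at a time never gave a called member, and reversed some differences. Treatment in the light zone ranged from -0.39 to 1.38 for H2-K1, -0.18 to 1.64 for H2-D1, -0.07 to 3.57 for Tap2 and -1.14 to 2.07 for Tapbp, each lowest value being without light zone treated replicate 2. The zone difference in treated libraries ranged from -1.28 to 0.62 for H2-K1, -1.53 to 0.29 for H2-D1, -1.68 to 0.18 for Tap1, -2.77 to 0.29 for Tap2, -2.64 to 0.65 for Tapbp, -0.22 to 0.28 for Nlrc5 and -0.38 to 0.6 for Erap1. In controls it ranged from -0.11 to 0.23 for H2-D1, -0.09 to 1.49 for Tap2, -0.76 to 0.36 for Nlrc5 and -0.33 to 2.21 for Erap1. The interaction ranged from -1.76 to 0.14 for H2-K1, -1.63 to 0.19 for H2-D1, -1.19 to 0.68 for Tap1, -0.3 to 0.82 for Nlrc5 and -2.1 to 0.44 for Erap1.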
